A study of Mus musculus with 6 samples.

Results

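The BCL2 family sets whether the mitochondrial outer membrane stays intact, and 10 of its genes were followed here in macrophages in which the matrix metalloproteinase MMP14 was neutralized. The genes were taken by symbol: the survival genes Bcl2, Bcl2l1, Bcl2l2 and Mcl1, the pore-forming effectors Bax and Bak1, and the BH3-only genes Bid, Bcl2l11, Bbc3 and Pmaip1. All 10 had a row among the 40773 gene symbols of the count table, and all 10 passed the filter on low counts, which left 11498 genes to test. The samples were RAW264.7 cells, an established mouse macrophage line. Cultures labelled LPS plus 3A2 had been kept for 24 h in lipopolysaccharide (LPS) at 100 ng/mL together with 3A2, an antibody that blocks MMP14, at 50 µg/mL. Cultures labelled LPS had received the same LPS dose for the same time and no 3A2. Each group had 3 cultures, which the labels call biological triplicates, and 1 library per culture. Every culture therefore carried LPS, and cells without LPS or with a control antibody were not analysed here.

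Survival proteins of this family (BCL-2, BCL-XL, BCL-W and MCL-1) hold the effectors BAX and BAK in check. BH3-only proteins are induced or activated by stress, bind the survival proteins or the effectors, and tip the balance toward pores that release cytochrome c and start the caspases. In macrophages, Toll-like receptor signalling is known to raise survival members such as BCL-XL and A1, and MCL-1 is a short-lived protein whose level follows its mRNA and its turnover closely.

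Libraries held 6060732 to 6537419 counts with LPS plus 3A2 and 6431096 to 7432553 with LPS. Counts on mitochondrial genes made up 5.20% to 9.94% with LPS plus 3A2 and 4.86% to 7.48% with LPS, and LPS plus 3A2 replicate 3 had the highest share and the fewest ribosomal protein counts (3.66% of its total). All 8 macrophage markers were present, summing to 6230 to 6670 CPM (counts scaled to a common library total, as edgeR gives them) with LPS plus 3A2 and 7160 to 7230 CPM with LPS, ranges that did not overlap. Most of that gap was Lyz2, at 3770 ± 125 CPM with LPS plus 3A2 and 4330 ± 69.4 CPM with LPS (SD, n = 3 each); the other 7 summed to 2576 to 2826 CPM with LPS plus 3A2 and 2828 to 2902 CPM with LPS. Of the markers of other cell types, those of epithelial cells and lymphocytes were at or near 0. Epithelial markers had 5 of 5 genes without a count. Lymphocyte markers, with 4 of 6 at 0, summed to at most 0.167 CPM with LPS plus 3A2 and 0.668 CPM with LPS. Fibroblast markers, with only Col1a2 at 0, summed to 1.83 to 2.92 CPM with LPS plus 3A2 and 1.74 to 3.95 CPM with LPS. Neutrophil markers, with S100a9 and Ly6g at 0, summed to 5.68 to 6.50 CPM with LPS plus 3A2 and 5.82 to 7.46 CPM with LPS. What part the mitochondrial share or the macrophage marker sum has in the differences below was not tested. In bulk RNA, fewer cells of a kind and less RNA per cell cannot be told apart.

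None of the 10 genes passed the test for a difference between LPS plus 3A2 and LPS. By edgeR's quasi-likelihood test, adjusted over all tested genes at a threshold of 0.05, 0 members were called, as were 0 of the 11498 genes (0%); DESeq2 and limma-voom also called 0 genes. At an unadjusted p under 0.05 by edgeR there were 4 members, Bcl2, Bcl2l2, Bcl2l11 and Bbc3, against 749 of all tested genes (6.51%). That count of 4 changed when a single library was left out. It was 0 without LPS replicate 2, 1 without LPS plus 3A2 replicate 1 and 3 without LPS replicate 1. It was 2 without LPS replicate 3 or without LPS plus 3A2 replicate 3, and 5 without LPS plus 3A2 replicate 2. By DESeq2 with all libraries it was 1, Bcl2l2, beside 379 of all tested genes. Over all genes, the fits with 1 library fewer gave 457 of 11658 tested without LPS replicate 2. They gave 638 of 11645 without LPS plus 3A2 replicate 1 and 652 of 11638 without LPS replicate 1. The count was 489 of 11629 without LPS replicate 3 and 653 of 11647 without LPS plus 3A2 replicate 3. It was 1751 of 11667 without LPS plus 3A2 replicate 2. In those fits the log2 fold changes ran from 0.327 to 0.396 for Bcl2 and from 0.151 to 0.214 for Bcl2l11. They ran from -0.413 to -0.286 for Bbc3 and from 0.312 to 0.652 for Bcl2l2. Those 4 were of different roles and not all on the same side: Bcl2, Bcl2l2 and Bcl2l11 had higher means with LPS plus 3A2 and Bbc3 a lower one. Of the 10 log2 fold changes, 5 lay above 0 and 5 below, with a median of 0.01, beside 50.4% above 0 and a median of 0.00 for all tested genes. The 95% interval of the fold change stayed within 1.5-fold in either direction for 7 of the 10 members, beside 79.6% of all tested genes, and within 2-fold for all 10. CPM values of the groups did not overlap for 4 members, Bcl2 and Bcl2l11 on the higher side and Bid and Bbc3 on the lower, where 12.3% of tested genes had groups that did not overlap in either direction.

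**Figure D1:**
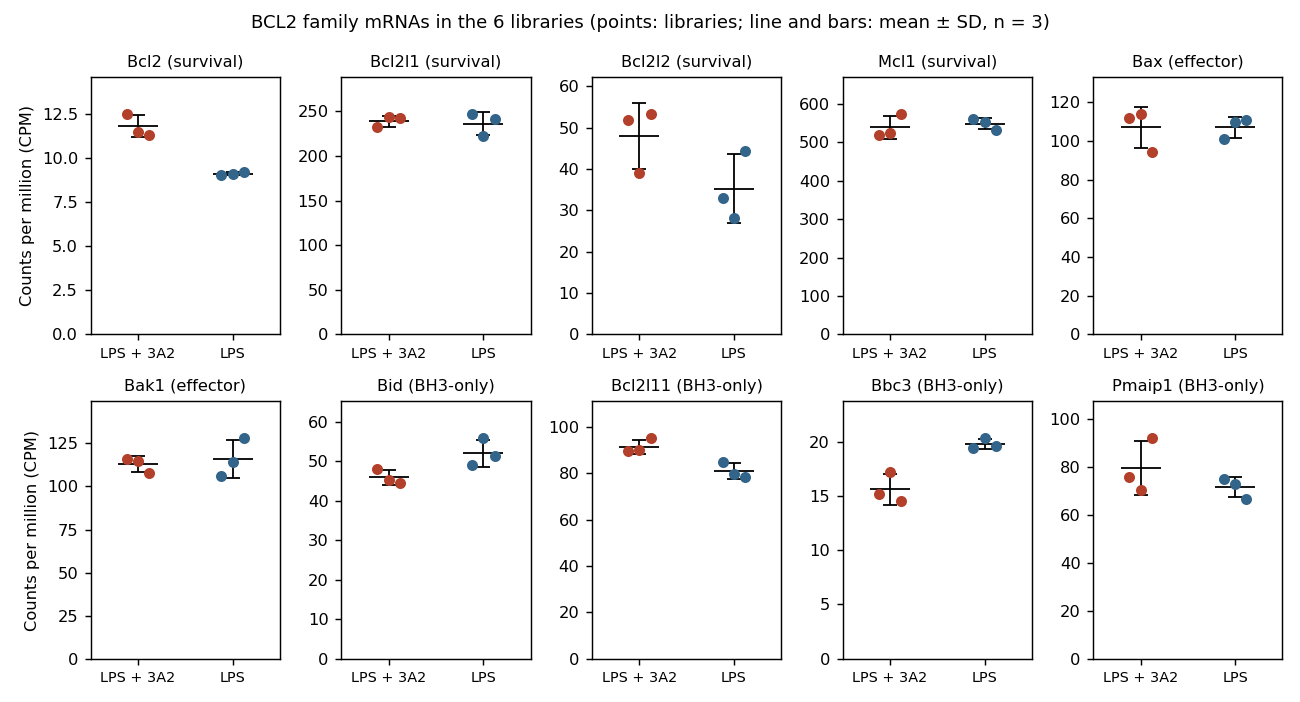
Levels of the 10 mRNAs in CPM, each panel from 0, with LPS plus 3A2 on the left and LPS on the right; points are the 3 libraries of a group and the line and bars are the mean ± SD. The groups separate for Bcl2, Bid, Bcl2l11 and Bbc3 and overlap for the other members.

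Levels can be set beside each other only per length, here as CPM per kilobase of merged exons in the mouse annotation GENCODE M21. On that scale Mcl1 was the most abundant member, at 158 with LPS plus 3A2 and 161 with LPS, above 97.1% of the tested genes that had a length. Bax followed at 123 with LPS plus 3A2 and 124 with LPS, then Bcl2l1 at 61.6 with LPS plus 3A2 and 60.8 with LPS, and Bak1 at 47.4 with LPS plus 3A2 and 48.6 with LPS. Pmaip1 stood at 29.0 with LPS plus 3A2 and 26.2 with LPS, and Bid at 21.0 with LPS plus 3A2 and 23.8 with LPS. In LPS libraries these neighbours in the order overlapped, with Pmaip1 at 24.4 to 27.4 and Bid at 22.4 to 25.5. Lower still, Bcl2l11 stood at 13.3 with LPS plus 3A2 and 11.7 with LPS. Bbc3 stood at 8.62 with LPS plus 3A2 and 10.9 with LPS, and Bcl2l2 at 11.8 with LPS plus 3A2 and 8.62 with LPS. Bcl2l2 therefore came above Bbc3 with LPS plus 3A2 and below it with LPS, and their ranges overlapped in LPS libraries. Bcl2 was the scarcest, at 1.29 with LPS plus 3A2 and 0.995 with LPS, above only 5.89% of tested genes. These lengths take every annotated exon as used, so a gene with long exons that are not transcribed in these cells is placed too low.

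Among the survival genes, the abundant pair Mcl1 and Bcl2l1 differed little between the groups. Mcl1 measured 520, 523 and 574 CPM with LPS plus 3A2, against 560, 554 and 532 CPM with LPS. The library with the highest value and the 2 with the lowest were all LPS plus 3A2 libraries, so the groups overlapped fully. Its fold change was 0.982 (95% interval 0.899 to 1.07), and edgeR's adjusted p was 0.949. Bcl2l1, which encodes BCL-XL, measured 232, 244 and 242 CPM with LPS plus 3A2, against 247, 222 and 241 CPM with LPS. The LPS values spanned those with 3A2, and the fold change was 1.01 (0.923 to 1.11; adjusted p = 0.966 by edgeR). Gene counts do not separate splice forms such as BCL-XL and BCL-XS.

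Bcl2, the founding member and the scarcest here, had 77, 75 and 68 counts with LPS plus 3A2, against 62, 68 and 60 counts with LPS. After scaling this was 12.5, 11.5 and 11.3 CPM with LPS plus 3A2, against 9.06, 9.08 and 9.19 CPM with LPS. Every LPS plus 3A2 library lay above every LPS library. That is a fold change of 1.29 (95% interval 1.03 to 1.63; unadjusted p = 0.0316 and adjusted p = 0.748 by edgeR). With so few counts, counting error alone is 12.1% per library, while the spread within groups averaged 2.98%. The libraries of a group thus lay closer together than their counts on average allow, and the gap between the groups has to be read with the counting error rather than with that spread.

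Bcl2l2, which encodes BCL-W, showed the largest fold change of the 10 members and also the widest spread. It measured 51.8, 38.9 and 53.3 CPM with LPS plus 3A2, against 32.9, 28.2 and 44.4 CPM with LPS. The groups overlapped, since LPS replicate 3 was above LPS plus 3A2 replicate 2. The mean was 48.0 ± 7.95 CPM with LPS plus 3A2 and 35.2 ± 8.37 CPM with LPS (SD, n = 3 each), and the spread within groups averaged 20.2%, against a counting error of 6.09%. Its fold change was 1.37 (95% interval 1.07 to 1.75; unadjusted p = 0.0177 and adjusted p = 0.719 by edgeR). Without a filter on low counts Bcl2l2 was called, at an adjusted p of 0.0288 by edgeR, where 16 of 18179 genes were called (0.088%). Its log2 fold change was 0.46 in that fit and 0.45 with the filter, and its standard error was 0.106 in that fit and 0.164 with the filter.

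The values of Bcl2l2 ran opposite to those of its downstream neighbour Pabpn1, which encodes a nuclear poly(A)-binding protein. GENCODE M21 places a read-through transcript, Gm20521-201, over both genes: its first 3 of 9 exons lie within Bcl2l2 exons (594 bases) and the rest within Pabpn1 exons (651 bases). It was singled out after the values of Bcl2l2 had been seen. The junction is shown because reads that cover either side of it belong to exons of both the read-through transcript and one of the genes. On GRCm38, in that annotation and not in coordinates of the count table, it joins chr14:54884784-54884813 to chr14:54894848-54894877 on the plus strand, with the Pabpn1 side in capitals.
Gm20521-201 junction: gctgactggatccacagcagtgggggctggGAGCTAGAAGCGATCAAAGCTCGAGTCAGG

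Pabpn1 measured 58.8, 76.0 and 60.8 CPM with LPS plus 3A2, against 77.8, 83.7 and 67.0 CPM with LPS. In each group, the library lowest in Bcl2l2, replicate 2, was the highest in Pabpn1. Its fold change was 0.856 (95% interval 0.738 to 0.993; unadjusted p = 0.041 and adjusted p = 0.748 by edgeR). Added together, the 2 genes measured 110.6, 114.9 and 114.1 CPM with LPS plus 3A2, against 110.7, 111.9 and 111.4 CPM with LPS. Over all 6 libraries the sum varied by 1.63% (SD over mean), whereas Bcl2l2 varied by 24.4% and Pabpn1 by 14.2%, and the counting error of the sum is 3.68%. Counted as 1 feature, the pair had a fold change of 1.02 (95% interval 0.92 to 1.12; adjusted p = 0.954 by edgeR). What differed was the share of the sum assigned to Bcl2l2: 46.9%, 33.8% and 46.7% with LPS plus 3A2, against 29.7%, 25.2% and 39.9% with LPS. How the authors' counting assigned reads at this locus is not given in the sources used here, and its part in the Bcl2l2 values was not tested.

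**Figure D2:**
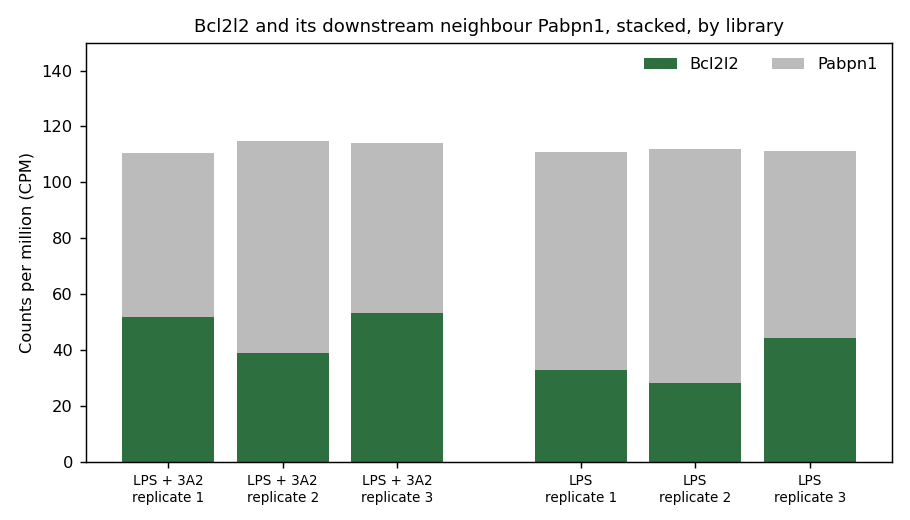
CPM of Bcl2l2 (lower part of each bar) and Pabpn1 (upper part), stacked, in each of the 6 libraries. The height of the whole bar stays between 110.6 and 114.9 CPM while the part given to Bcl2l2 runs from 28.2 to 53.3 CPM.

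The effectors Bax and Bak1, which form the pores, showed no difference beyond the spread of the libraries. Bax measured 112, 114 and 94.5 CPM with LPS plus 3A2, against 101, 110 and 111 CPM with LPS. The lowest value was that of LPS plus 3A2 replicate 3, and the other libraries of that group were the highest of all. Bax stood at 0.996-fold (95% interval 0.886 to 1.12; adjusted p = 0.991 by edgeR). Bak1 measured 116, 115 and 108 CPM with LPS plus 3A2, against 106, 114 and 128 CPM with LPS, and the LPS values spanned those of the other group. Its fold change was 0.976 (0.871 to 1.09; adjusted p = 0.949 by edgeR). In GENCODE M21, 10.7% of the merged Bak1 exons overlap Ggnbp1 on the opposite strand, a gene that measured 3.58 ± 0.859 CPM with LPS plus 3A2 and 3.88 ± 0.888 CPM with LPS (SD, n = 3 each). Likewise 22.1% of the Bax exons overlap Gm45808 on the same strand and 6.1% of the Bcl2 exons overlap the antisense gene D630008O14Rik, neither of which was analysed here. The strand setting of the counting is not given in the sources used here, so reads from the opposite-strand overlaps may be counted to either gene. A strand setting cannot separate the same-strand overlap of Bax. How reads there were assigned is not given either, and its part in the Bax values was not tested.

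The BH3-only genes lay on both sides of 0, with Bcl2l11 and Pmaip1 above 0 and Bid and Bbc3 below on the log2 scale. Bcl2l11 encodes BIM, which binds every survival protein of the family and can act on the effectors directly. It measured 89.7, 90.0 and 95.2 CPM with LPS plus 3A2, against 84.8, 79.7 and 78.3 CPM with LPS. All values with 3A2 lay above those with LPS alone. The mean was 91.6 ± 3.05 CPM with LPS plus 3A2 and 80.9 ± 3.41 CPM with LPS (SD, n = 3 each). The fold change was 1.13 (95% interval 1.02 to 1.26; unadjusted p = 0.0274 and adjusted p = 0.743 by edgeR). Splice forms that give BIM proteins of different length are not separated in gene counts.

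Bbc3 encodes PUMA, a target of p53 and of forkhead factors. It had 94, 112 and 87 counts with LPS plus 3A2, against 133, 152 and 128 counts with LPS, or 15.2, 17.2 and 14.5 CPM with LPS plus 3A2, against 19.4, 20.3 and 19.6 CPM with LPS. The groups did not overlap, and the lowest LPS library lay above the highest one with 3A2. The mean was 15.6 ± 1.4 CPM with LPS plus 3A2 and 19.8 ± 0.451 CPM with LPS (SD, n = 3 each). LPS plus 3A2 over LPS gave a fold change of 0.792 (95% interval 0.655 to 0.956; unadjusted p = 0.0178 and adjusted p = 0.719 by edgeR). Its spread within groups averaged 5.62% and its counting error was 9.22%.

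Bid encodes a protein that caspase-8 cuts to link death receptors to mitochondria. It measured 47.9, 45.2 and 44.5 CPM with LPS plus 3A2, against 49.1, 55.8 and 51.2 CPM with LPS. The groups did not overlap, though the closest libraries were near each other. Bid stood at 0.881-fold (95% interval 0.772 to 1.00; unadjusted p = 0.0572 and adjusted p = 0.756 by edgeR). Pmaip1 encodes NOXA, a partner of MCL-1, and measured 75.6, 70.4 and 91.8 CPM with LPS plus 3A2, against 74.9, 72.9 and 66.7 CPM with LPS. Its higher mean with 3A2 rested on replicate 3, since the other libraries of that group lay within or near the LPS range. The fold change was 1.11 (0.967 to 1.27; adjusted p = 0.805 by edgeR), and without LPS plus 3A2 replicate 3 its log2 fold change was 0.03, against 0.15 with all libraries.

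**Figure D3:**
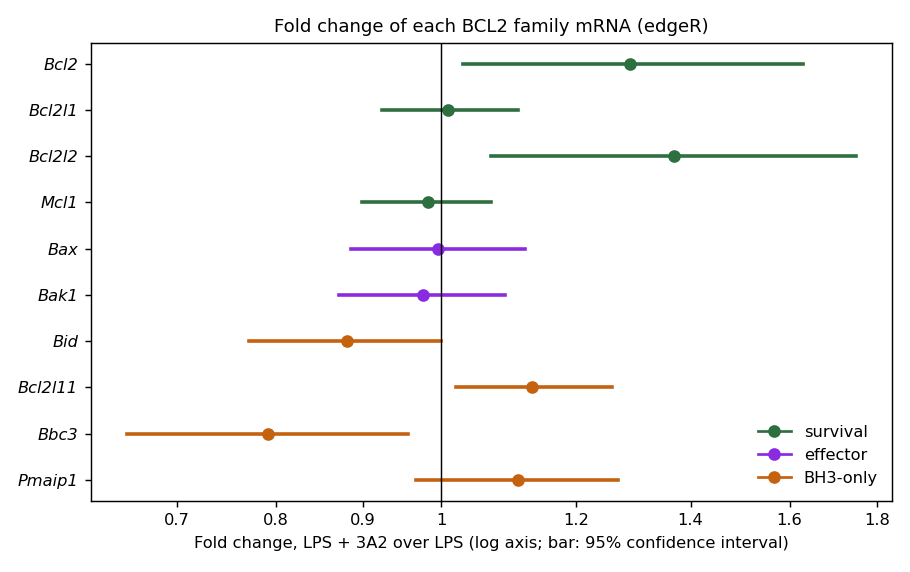
Fold change of LPS plus 3A2 over LPS by edgeR on a log axis, with 95% confidence intervals, for the 10 members ordered by role. The intervals of Bcl2, Bcl2l2 and Bcl2l11 lie above 1 and that of Bbc3 below it, while 0 members passed after adjustment.

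Bcl2l11 and Bbc3, whose means lay on opposite sides, are both textbook targets of forkhead factors of the FOXO group, and their start windows are shown for the forkhead core GTAAACA. The windows come from the RefSeq promoter table of build GRCm38.p6 and run from 250 bases before to 50 bases after an annotated start. Windows on 1 chromosome were left out of the search, and no window of Pmaip1 was searched. The other 9 members had 14 windows, which were searched on both strands. The core occurred in 1 of the windows of each of these 2 genes, capitalized here as GTAAACA in Bcl2l11 and as its reverse complement TGTTTAC in Bbc3, and in 3.65% of 32851 windows of all genes. None of the other windows among the 14 held it. The E-box CACGTG and the TATA box TATAAA were also searched. The forkhead core overlaps none of the GC boxes (GGGCGG on either strand) in the 2 windows that hold it. The motif was chosen after the windows and the values had been seen, and a match describes the letters only. The Bcl2l11 window lies at chr2:128125788-128126087 and the Bbc3 window at chr7:16310011-16310310, both on the plus strand.
Bcl2l11 start window: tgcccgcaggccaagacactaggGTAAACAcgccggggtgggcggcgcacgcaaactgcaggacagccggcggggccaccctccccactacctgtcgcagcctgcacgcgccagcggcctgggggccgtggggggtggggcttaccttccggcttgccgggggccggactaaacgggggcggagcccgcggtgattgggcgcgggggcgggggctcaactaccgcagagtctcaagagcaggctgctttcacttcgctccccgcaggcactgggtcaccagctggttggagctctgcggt
Bbc3 start window: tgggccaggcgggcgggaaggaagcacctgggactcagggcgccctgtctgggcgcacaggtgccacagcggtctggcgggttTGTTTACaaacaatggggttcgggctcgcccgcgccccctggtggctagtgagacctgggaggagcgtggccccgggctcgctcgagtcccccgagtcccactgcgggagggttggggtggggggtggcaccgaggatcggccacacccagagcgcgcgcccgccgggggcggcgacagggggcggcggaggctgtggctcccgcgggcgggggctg

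The mRNAs of the FOXO factors themselves, also picked after their values were seen, were not called by edgeR. Foxo3 measured 94.3 ± 2.62 CPM with LPS plus 3A2 and 99.4 ± 3.87 CPM with LPS (SD, n = 3 each), groups that did not overlap, a fold change of 0.950 (95% interval 0.854 to 1.06). Foxo1 averaged 16.5 CPM with LPS plus 3A2 and 16.7 CPM with LPS, a fold change of 0.991.

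Ratios of a death gene to a survival gene within a library do not depend on library scaling, and 2 were taken. These are ratios of counts, so their size also reflects gene length and only the difference between groups can be read. The log2 ratio of Bax to Bcl2 was 3.16, 3.29 and 3.05 with LPS plus 3A2, against 3.46, 3.59 and 3.58 with LPS. It was lower in 3 of 3 libraries with 3A2 than in any LPS library, by a mean difference of -0.38 on the log2 scale. An exact two-sided permutation test gave p = 0.1, the smallest p that 3 against 3 libraries allow, so the design cannot reach 0.05 for a single ratio. Since Bax itself stood at 0.996-fold, this difference comes from the Bcl2 counts, with their counting error of 12.1%. The log2 ratio of Bcl2l11 to Mcl1 was -2.53, -2.54 and -2.59 with LPS plus 3A2, against -2.72, -2.80 and -2.76 with LPS. It was higher in 3 of 3 libraries with 3A2, by a mean of 0.21 on the log2 scale, again at the smallest p of 0.1 by the exact permutation test. The family of tests held these 2 ratios, and their Benjamini-Hochberg adjusted p is 0.1 for each. Since Mcl1 stood at 0.982-fold and Bcl2l11 at 1.13-fold, the second difference comes mostly from the Bcl2l11 counts. The first ratio was lower and the second higher, so these 2 ratios of death to survival mRNA differed in opposite directions. Each mainly repeats the difference of 1 member given above.

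**Figure D4:**
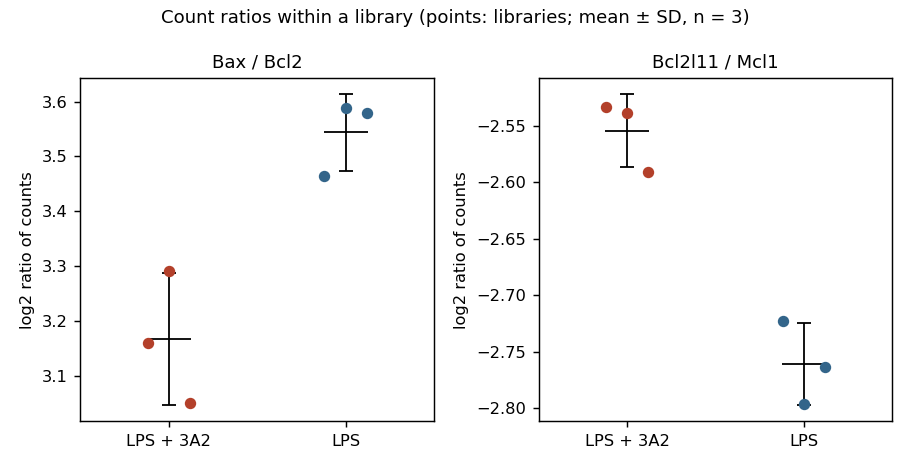
Log2 ratio of counts of Bax to Bcl2 (left) and of Bcl2l11 to Mcl1 (right) in each library, with mean ± SD; the axes do not start at 0. The LPS plus 3A2 libraries lie below the LPS libraries in the left panel, at 3.05 to 3.29 with LPS plus 3A2 and 3.46 to 3.59 with LPS, and above them in the right panel.

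Other relatives of the family were mostly above 0 without passing the test. Of 16 listed, 9 were tested, 8 of them above 0 and 1 below, with a median log2 fold change of 0.15 beside 0.00 for all tested genes. Bcl2a1b, one of the mouse copies of the survival gene A1 that NF-κB induces, measured 23.1 ± 3.05 CPM with LPS plus 3A2 and 18.4 ± 1.68 CPM with LPS (SD, n = 3 each), or 1.26-fold (95% interval 1.04 to 1.52). Its unadjusted p was 0.0219 and its adjusted p 0.733 by edgeR. The copy Bcl2a1d stood at 10.5 ± 0.183 CPM with LPS plus 3A2 and 8.76 ± 0.713 CPM with LPS, or 1.2-fold (0.939 to 1.52). The A1 copies are near identical, so reads may be split between them and each value is uncertain. Bcl2l15 stood at 1.11-fold and the mitophagy receptor gene Bnip3 at 1.12-fold (1.00 to 1.26). Bcl2l10, Bok and Hrk had no count in any library, and a count of 0 allows 3 counts, or 0.461 to 0.5 CPM, in a library with LPS plus 3A2 and 0.401 to 0.46 CPM in one with LPS.

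Genes upstream and downstream of the mitochondrial step held no called member either. Across 6 lists, the relatives included, 91 of 100 genes were tested, 50 lay above 0 and 41 below, and 7 had an unadjusted p under 0.05 by edgeR (7.69%, beside 6.51% of all tested genes). Of 21 genes of the caspases, the apoptosome and the inhibitors of apoptosis, 12 lay above 0 and 9 below. Birc3, a ubiquitin ligase of TNF receptor signalling, measured 83.3 ± 3.95 CPM with LPS plus 3A2 and 93.2 ± 1.55 CPM with LPS, or 0.894-fold (95% interval 0.803 to 0.995). The caspase inhibitor Xiap stood at 1.13-fold (0.962 to 1.34), its relative Birc2 at 1.12-fold, the mitochondrial protease gene Htra2 at 1.10-fold and Birc6, another member of the inhibitor family, at 1.04-fold. In the p53 pathway 11 of 18 tested genes lay above 0. Plk2, a polo-like kinase, measured 209 ± 7.41 CPM with LPS plus 3A2 and 184 ± 4.46 CPM with LPS, or 1.14-fold (1.03 to 1.25), and Ei24 stood at 1.15-fold (1.02 to 1.31). Mdm4, an inhibitor of p53, stood at 1.11-fold, Ccng1 at 1.08-fold and Cdkn1a, the cell cycle inhibitor p21, at 1.02-fold (0.924 to 1.13). The 7 genes of the list below 0 ranged from 0.938-fold (Aen) to 0.994-fold (Ddit4), both named after their values were seen.

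Mitochondrial and contact genes had 12 of 18 above 0, with a median log2 fold change of 0.09. Mtch2, which encodes the mitochondrial receptor of cleaved BID, measured 81.8 ± 9.58 CPM with LPS plus 3A2 and 69.1 ± 4.81 CPM with LPS, or 1.18-fold (95% interval 1.04 to 1.35). Vdac2, whose channel binds BAK and BAX, stood at 1.11-fold (1.01 to 1.22), Bcap31 at 1.12-fold, the calcium channel gene Itpr1 at 0.905-fold and the adenine nucleotide carrier gene Slc25a5 at 1.06-fold. Regulators of the members had 4 of 15 above 0 and 0 at an unadjusted p under 0.05 by edgeR. Huwe1, a ubiquitin ligase that marks MCL-1 for destruction, measured 481 ± 3.75 CPM with LPS plus 3A2 and 486 ± 7.24 CPM with LPS, or 0.989-fold (0.910 to 1.08). The stress gene Trib3 stood at 0.708-fold (0.495 to 1.01), and E2f1, Stat5a and Mapk8 stood at 0.886-fold, 0.888-fold and 1.15-fold. Death receptor and necroptosis genes had 3 of 10 above 0. Zbp1, a nucleic acid sensor that can start necroptosis, stood at 1.39-fold (1.07 to 1.8), the TRAIL receptor gene Tnfrsf10b at 0.845-fold (0.704 to 1.01), Tnfrsf1a at 0.927-fold and the kinase gene Ripk3 at 0.944-fold. All genes of these lists had an adjusted p of at least 0.719 by edgeR.

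**Figure D5:**
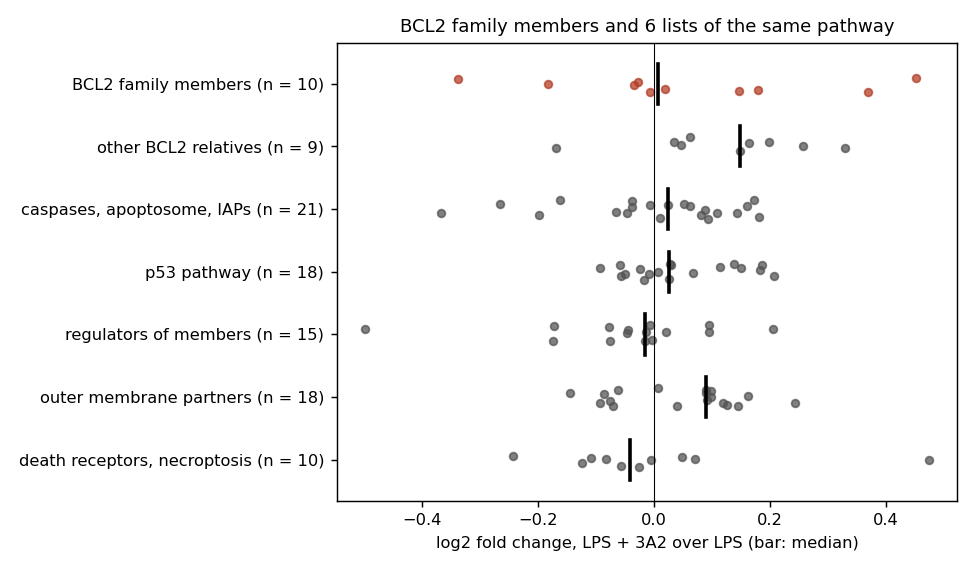
Log2 fold change of LPS plus 3A2 over LPS for each tested gene of the 10 members (top row) and of 6 lists of the same pathway, with the median of each row as a bar. The members spread from -0.34 to 0.45 around a median of 0.01, and the medians of the lists lie between -0.04 and 0.15.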

How the data were processed

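The authors deposited raw read counts per gene symbol, 1 column per library, from ribosome-depleted, strand-specific paired-end RNA sequencing, per the labels' protocols. HISAT2 and edgeR appear in the submitters' processing notes without version or role; which counter, strand setting and gene annotation were used is not stated in the sources used here. Those notes name GRCh38, a human build, although the symbols are those of mouse, so coordinates come only from the reference annotations named beside them.

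Counts were filtered with filterByExpr, given TMM scaling factors and compared between the groups, without covariates, by the quasi-likelihood F test of edgeR 4.0.16 with robust fitting, in R 4.3.3, two-sided, with Benjamini-Hochberg adjustment over all 11498 genes tested. CPM used the scaled totals. The 6 numbers typed into 3 unnamed columns beside Nfkb1 and Nfkb2 belong to no sample and were not used. Fold change intervals are at the 95% level and come from the edgeR fit, so they include the spread between libraries; counting errors and the limit for a count of 0 cover counting error only. Over all tested genes, log2 fold changes had a median standard error of 0.119, and edgeR's common biological coefficient of variation came to 0.0768. Ratios had 0.5 added to each count. Alternatives were DESeq2 size factors, reduced totals, other filters, DESeq2 1.42.0, limma-voom (limma 3.58.1), a replicate block and leaving out each library; summing Bcl2l2 with Pabpn1 and leaving Lyz2 out of the macrophage marker sum were added after seeing the data. The tests were tried on simulated data. All 10 members are named; of each list, the text names the 4 genes with the smallest p and the one with the highest CPM, which is not scaled for length. Bcl2l10, Bok, Hrk, Pabpn1, Ggnbp1, Foxo1, Foxo3, Aen and Ddit4 were named beyond this rule, once their values had been seen. So were the cell type markers Lyz2, Csf1r, Spi1, Itgam, Adgre1, Ptprc, Cd68, Cd14, Col1a2, S100a9 and Ly6g. The members and lists were chosen with earlier results of these data known.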

Additional observations from a re-analysis of the deposited data

How the results depend on the processing

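Across 13 other settings per member, 124 of 130 fold changes kept their direction and side of the threshold. Of the others, 1 was Bcl2l2 without a filter on low counts, which called 16 genes in all and 1 member, this one, at a log2 fold change of 0.46 (adjusted p = 0.0288 by edgeR); summed with Pabpn1 its log2 fold change was 0.02. The remaining 5 changed sign when a single library was left out, all close to 0. On the log2 scale, leaving out each library gave -0.02 to 0.05 for Bcl2l1 (-0.025 at the lowest), -0.053 to 0.074 for Bax and -0.096 to 0.039 for Bak1; the cause was not tested. Bcl2l2 ranged from 0.31 to 0.65, at adjusted p values of 0.0922 to 0.991 by edgeR, and Pmaip1 from 0.03 to 0.23. Bcl2, Bcl2l11, Bbc3 and Bid kept their direction in each of these fits, and 0 members were called in any of them. Over all genes these fits called 0 to 24, the most without LPS plus 3A2 replicate 2 (20 higher and 4 lower). The log2 ratio of Bax to Bcl2 ranged from -0.439 to -0.319 and that of Bcl2l11 to Mcl1 from 0.19 to 0.226.

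With an unadjusted p under 0.05 there were 379 genes and 1 member by DESeq2, 740 genes and 4 members by limma-voom and 612 genes and 3 members with the replicate block, against 749 genes and 4 members by edgeR without it. Leaving out each library gave 457 genes (without LPS replicate 2) to 1751 genes (without LPS plus 3A2 replicate 2), and 0 to 5 members in the same fits. The replicate block called 1 gene and 0 members, with Bcl2l2 at an unadjusted p of 0.000268 and an adjusted p of 0.466 by edgeR; it moved no member past the threshold. Same-numbered libraries did not deviate together, with correlations of -0.007, 0.032 and -0.156, so the numbers are not taken as pairs. Paired differences of the ratios gave p = 0.25 each by an exact sign-flip test, the smallest it allows. DESeq2 and limma-voom called 0 genes and 0 members. Depth limits Bcl2 and Bbc3, whose counting errors were 12.1% and 9.22% per library.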

Other observations

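Among the macrophage markers used to check the cell line, 3 had an unadjusted p under 0.05 by edgeR (6.51% of all tested genes did), each with a lower mean with 3A2. Lyz2, which encodes lysozyme, measured 3900, 3760 and 3650 CPM with LPS plus 3A2, against 4350, 4390 and 4250 CPM with LPS, and the groups did not overlap. Its fold change was 0.871 (95% interval 0.805 to 0.943; unadjusted p = 0.00155 and adjusted p = 0.719 by edgeR). Csf1r, the receptor for the macrophage growth factor CSF1, measured 441, 435 and 396 CPM with LPS plus 3A2, against 475, 470 and 504 CPM with LPS, or 0.878-fold (0.802 to 0.962; adjusted p = 0.719 by edgeR). Spi1, which encodes the transcription factor PU.1, stood at 0.864-fold (0.769 to 0.971), with groups that overlapped. Itgam, an integrin subunit gene, measured 404, 409 and 404 CPM with LPS plus 3A2, against 422, 436 and 434 CPM with LPS, groups that did not overlap, at 0.942-fold (0.865 to 1.02; adjusted p = 0.812 by edgeR). Of the other 4 markers, Adgre1 stood at 1.03-fold and Ptprc, Cd68 and Cd14 at 0.970-fold to 0.988-fold. None of these markers passed the test over all genes.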
